A study of Mus musculus with 20 samples.

Results

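Rhabdomyolysis, the breakdown of skeletal muscle that floods the kidney with muscle protein, was compared at 24 h with matched controls in renal cortex. The libraries were 4 titled rhabdomyolysis (mice 1 to 4) and 4 titled control (mice 5 to 8) of the same library identifier range, 8 of the 20 in the series, with 1 library per mouse. Every mouse was wild type on the C57BL/6 background (C57BL/6J in the protocol) and 8 weeks old. The control libraries are labelled mock, whereas the design text speaks of mock and vehicle controls, so the kinds of control cannot be told apart here. No time is given for the controls, which are matched by identifier range. The agent or procedure that produced rhabdomyolysis, and the sex of the mice, are not given in the sources used here. Used for contrast only were 4 mice at 72 h of cisplatin, which share controls 5 to 8, and 4 mice at 24 h of ischemia-reperfusion injury (IRI) with their own controls 1 to 4, from another identifier range.

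Myoglobin from injured muscle is small enough to be filtered at the glomerulus. Cells of the proximal tubule take it up through the endocytic receptors megalin and cubilin, break down its heme with heme oxygenase and store or export the iron. Free heme and iron drive lipid peroxidation, and the tubule is known to respond with antioxidant, chaperone and inflammatory programmes while transport genes are turned down.

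The deposited table holds 6025 genes, as counts per 1000000 reads (CPM) scaled by the authors. All of them lay at least 1.5-fold from the mean of the 8 controls of the series in at least 1 of the 3 injuries, with a smallest such fold of 1.53, so the table is a selection for change. With a minimum mean of 1 CPM over all 20 libraries, 5672 genes were tested and 353 were left out. The recovered reads in the table numbered 3.99 to 4.73 M per rhabdomyolysis library and 3.58 to 4.99 M per control, and the table held 42.1 to 45.3% of the effective library size after rhabdomyolysis against 57.5 to 66.6% in controls. The first principal component of the 8 libraries held 92.8% of the variance and separated the groups. Rhabdomyolysis mouse 4 stood apart on the second component (2.36% of the variance), at -23.4 against 0.142 to 12.1 for the other 3, and its values are given separately where they matter.

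Against matched controls, 2768 genes (48.8%) rose and 2636 (46.5%) fell at a limma adjusted p of 0.05, 95.3% of those tested in all. All 4 rhabdomyolysis values lay outside the 4 control values for 5058 genes (89.2%). Because these shares come from a table selected for change, a list below in which nearly every tested member was called is no more than that background, and its direction and size are the description. The median change over all genes tested was 0.31 on the log2 scale, and it moved to 0.44 with 75th percentile scaling and to 0.14 with quantile normalization. At least 10-fold changes were called for 115 genes upward and 97 downward. In whole tissue, fewer cells of a type and less RNA per cell cannot be told apart. Folds are ratios of group means, and log2 changes are on the log2(CPM + 1) scale, which understates the change of genes with few reads.

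**Figure D1:**
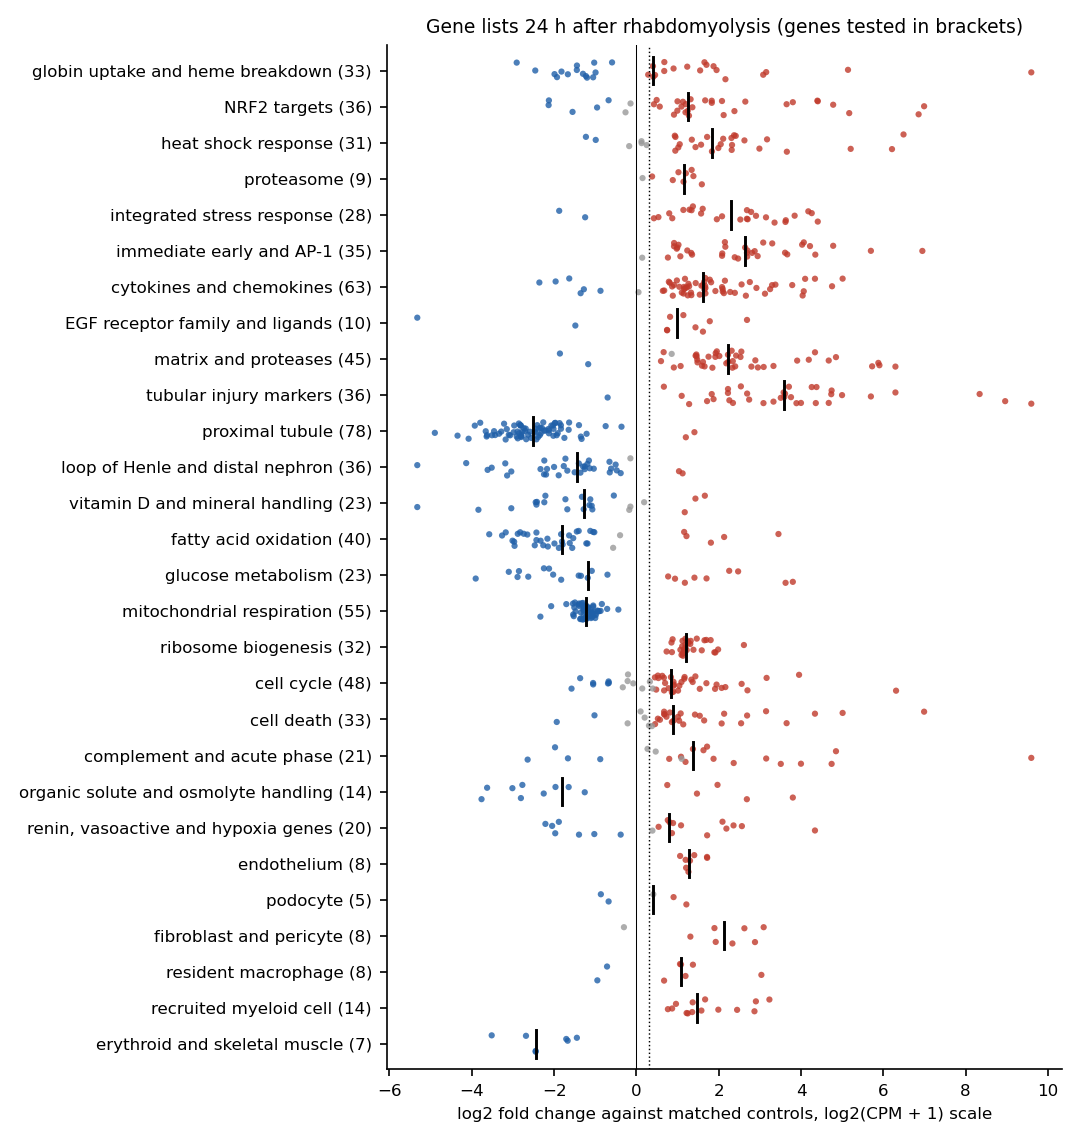
Log2 fold change of every tested member of each gene list, rhabdomyolysis against matched controls, with red for genes that rose, blue for genes that fell, grey for genes not called, a black bar for the list's median and a dotted line for the median of all genes tested (0.31). Chaperone, stress response, AP-1, matrix and injury lists lie mostly to the right, and proximal tubule (median -2.51) and mitochondrial respiration (median -1.22) to the left.

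The 10 largest rises, ranked on the log2(CPM + 1) scale, included Lcn2, Havcr1, Krt20 and Slc7a11. Lcn2, the iron-carrier-binding protein lipocalin 2 used as a urinary injury marker, measured 1.32, 0.642, 0.668 and 0.414 CPM in controls 5 to 8 and 1525, 940.2, 979 and 2289 CPM in rhabdomyolysis mice 1 to 4. Its mean in the injured mice was 1885-fold higher (log2 change 9.60, SE 0.29, limma adjusted p 2.2e-17), with mouse 4 the highest and no overlap. Havcr1, which encodes the phosphatidylserine receptor KIM-1 of injured proximal tubule, went from 2.31, 2.25, 4.54 and 1.66 CPM to 1611, 2300.1, 2275 and 1156 CPM, 683-fold, and here mouse 4 was the lowest of the injured mice. Krt20, an epithelial keratin, was close to absent in controls (0, 0, 0.134 and 0.138 CPM) and reached 301, 323, 285 and 509 CPM. Its ratio of 5218 rests on 2 control reads, with a counting interval of 1444 to 43083, and every injured mouse was above 280 CPM. Slc7a11, the cystine-glutamate exchanger that supplies cysteine for glutathione, rested at 0, 0, 0.401 and 0 CPM in controls and at 83.2, 153, 123 and 228 CPM after rhabdomyolysis, a ratio of 1464 from 3 control reads (interval 501 to 7101). Mouse 4 carried the most and mouse 1 the least, and all 4 lay far above the controls.

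Other leading rises had the same separation. Fosl1, the AP-1 subunit FRA-1, had no read in any control and 95.01, 113, 130.2 and 161 CPM in the injured mice, at least 279-fold higher when the controls are set to 3 reads per library. Flnc, which encodes the actin crosslinker filamin C, rose from 0.494, 0.481, 0.134 and 0.138 to 103, 168, 188 and 79.7 CPM (432-fold, counting interval 219 to 1000.7). Cdkn1a, the cell cycle inhibitor p21, rose from 2.96, 3.85, 5.88 and 3.31 to 322, 346, 384 and 523 CPM (98.4-fold). Gsta1, a glutathione transferase with near-identical paralogs that may draw on the same reads, was at 0.659, 0, 1.34 and 0 and 119, 148, 172 and 226 CPM, and that call is uncertain for the single gene. Timp1, an inhibitor of matrix metalloproteinases, rose from 0.329, 0.160, 0.534 and 0 to 179, 89.4, 162 and 32.9 CPM, a ratio of 452 from 7 control reads (counting interval 219 to 1125). Mouse 4 was lowest of the injured mice and still far above every control.

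The 10 largest falls were ranked on the same log2(CPM + 1) scale. Egf, the growth factor made by the thick ascending limb and distal convoluted tubule, dropped from 1002, 1367, 1064 and 1389 CPM to 20.2, 29.0, 21.9 and 53.2 CPM, 38.8-fold lower (log2 -5.32, SE 0.27, limma adjusted p 8.3e-14). Hykk, hydroxylysine kinase, dropped from 338, 430.1, 427 and 459.5 to 8.13, 10.0, 11.6 and 10.6 CPM, and Cckar, the cholecystokinin A receptor, from 146, 158, 159 and 142 to 3.69, 3.94, 3.04 and 3.41 CPM (43.0-fold lower). For all 3 the injured mice lay far under every control, and within 1 narrow band apart from a higher Egf value in mouse 4. Hsd3b2, a steroid dehydrogenase gene, fell 45.6-fold, Acmsd, an enzyme that diverts tryptophan carbon from NAD synthesis, 28.3-fold, and Keg1, a kidney-expressed glycine acyltransferase-like gene, 28.9-fold. Of the 10 largest falls, the other 4 are predicted or unnamed transcripts, 0610005C13Rik (log2 -5.15), D630029K05Rik (-5.10), Gm11128 (-5.56) and Gm10681 (-4.64), and are uncertain.

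**Figure D2:**
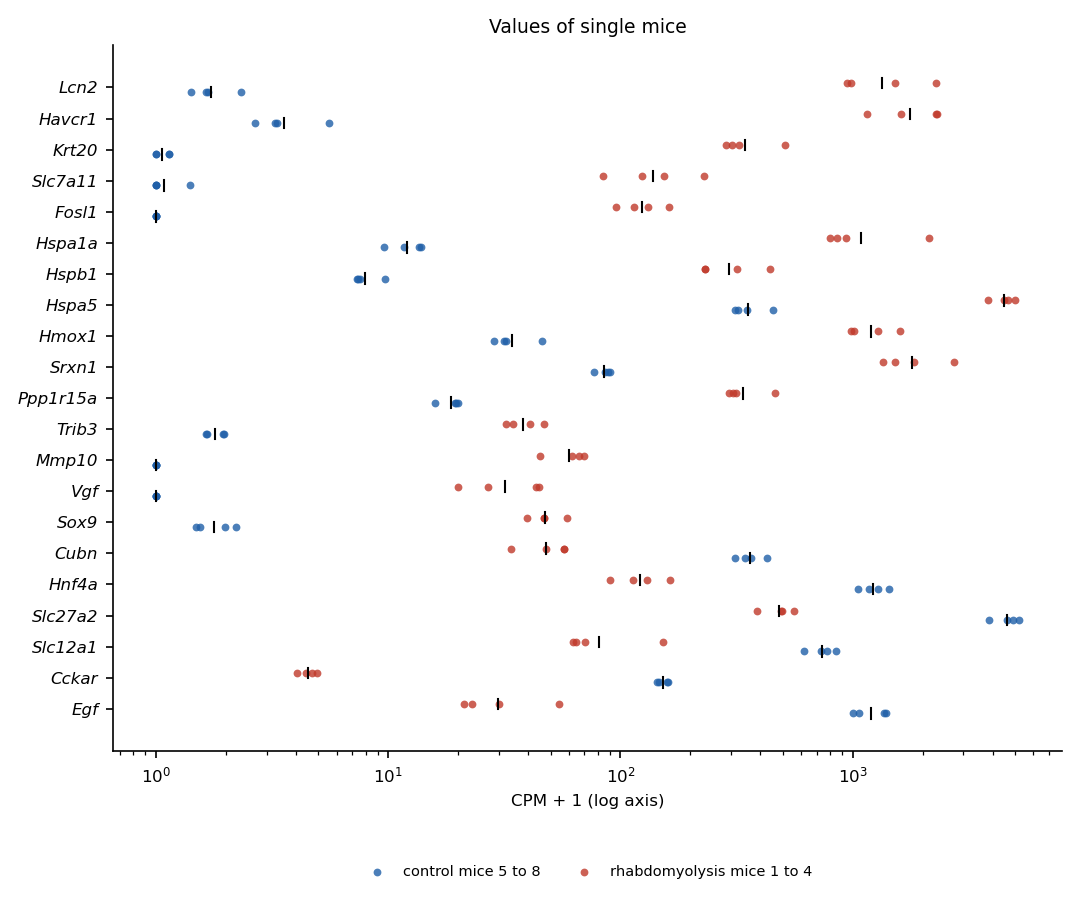
CPM + 1 (log axis) of 21 genes in single mice, with blue points for control mice 5 to 8, red points for rhabdomyolysis mice 1 to 4 and a black bar for each group's geometric mean. For each gene drawn the red points lie wholly to one side of the blue ones, as with Lcn2 (controls up to 1.32 CPM, injured mice from 940.2 CPM) and Cckar (controls from 142 CPM, injured mice up to 3.94 CPM).

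Chaperone genes were raised in the cytosol and in the endoplasmic reticulum (ER). Heat shock proteins hold unfolded proteins in the cytosol, and their genes are switched on by heat shock factor 1 through heat shock elements. Chaperones of the ER do the same for secreted proteins under the unfolded protein response. Of 66 listed chaperone genes, 31 were in the table and tested; 25 rose, 2 fell and 4 were not called, with a median log2 change of 1.84. Within the HSP70 family, the stress-inducible Hspa1a measured 12.5, 10.7, 12.8 and 8.56 CPM in controls and 2128, 801, 937 and 857 CPM after rhabdomyolysis, 106-fold (log2 6.49, SE 0.22, limma adjusted p 1.2e-16). Mouse 1 was more than 2-fold above the other 3, which lay close together. Its near-identical neighbour Hspa1b, with which it may share reads, gave 1724, 649, 811 and 734 CPM in the same mice. The constitutive Hspa8 did not pass the test, at 2078, 2004, 3356 and 2578 CPM in controls and 2879, 2095, 2332 and 3641 CPM after injury, with overlapping groups.

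Small heat shock proteins and co-chaperones followed. Hspb1, the actin-stabilizing HSP27, rose from 6.42, 6.58, 8.68 and 6.35 to 439, 229.7, 316 and 231 CPM (43.4-fold), again highest in mouse 1. Hspb8, which works with the co-chaperone BAG3 in selective autophagy, rose from 4.94, 3.05, 3.74 and 4.56 to 41.1, 50.04, 47.7 and 39.3 CPM (10.9-fold). Bag3 itself rose by a log2 change of 2.41, the HSP110 gene Hsph1 by 2.05, the HSP40 gene Dnajb1 by 1.84, the inducible cytosolic HSP90 gene Hsp90aa1 by 2.31 and the lens and muscle chaperone Cryab by 2.99. The 2 falls were Trap1, the mitochondrial HSP90 (log2 -1.23), and Fkbp4, a steroid receptor co-chaperone (-0.99). Hspb2, Hspb6, Dnaja1 and Hspa8 were the 4 without a call, and with quantile normalization Hspa8 (log2 0.68) and Dnaja1 (0.73) were called higher, as was Dnaja1 with 75th percentile scaling (0.31).

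ER chaperones rose in all 7 of the 7 tested of 10 listed, with a median log2 change of 2.32. Hspa5, the master ER chaperone BiP, stood at 319.5, 310.2, 451 and 350.4 CPM in controls and 3829, 4666, 4976 and 4498 CPM after injury, 12.6-fold (log2 3.66, SE 0.13, limma adjusted p 2.5e-16). The 4 injured mice lay in a narrow range and none was near a control. Creld2, a secreted disulfide isomerase-like factor, rose from 17.95, 18.6, 23.5 and 20.6 to 99.0, 154, 197 and 92.0 CPM. Hyou1 (log2 2.32), Sdf2l1 (2.32), Manf (2.11), Pdia4 (1.44) and Pdia6 (1.05) completed the group of folding factors.

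The promoters of the leading chaperones show what the heat shock element looks like beside the rises just given. Windows run from 250 bases before to 50 after the RefSeq start on GRCm38.p6, are read on the gene's own strand, and carry the element (GAANNTTC or TTCNNGAA, each its own reverse complement) in capitals. Hspa1a lies at chr17:34972107-34972406 on the minus strand, and Hspb1 at chr5:135887669-135887968 on the plus strand.
Hspa1a: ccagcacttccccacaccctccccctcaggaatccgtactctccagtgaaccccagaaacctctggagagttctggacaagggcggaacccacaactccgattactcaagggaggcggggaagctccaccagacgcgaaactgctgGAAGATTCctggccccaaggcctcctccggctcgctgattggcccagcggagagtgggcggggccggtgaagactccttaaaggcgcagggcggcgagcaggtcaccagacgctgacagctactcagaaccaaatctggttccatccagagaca
Hspb1: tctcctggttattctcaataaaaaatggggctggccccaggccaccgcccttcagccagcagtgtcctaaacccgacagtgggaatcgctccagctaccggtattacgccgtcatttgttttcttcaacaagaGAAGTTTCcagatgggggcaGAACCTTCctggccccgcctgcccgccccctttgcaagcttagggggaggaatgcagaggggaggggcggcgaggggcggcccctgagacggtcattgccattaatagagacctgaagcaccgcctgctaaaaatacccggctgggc

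The Hspa1a window holds 1 element, whose first base is 104 bases before the start, and the Hspb1 window holds 2, at 117 and 97 bases before it. The windows of Hspa1a and Hspa1b are the same at 296 of 300 bases (98.7%). Of the 31 tested chaperone genes, 24 had a window and 11 of those held an element (45.8%), against 17.0% of all genes with a window (4587 of 27025). Among the 20 that rose with a window, 8 held it, and among the 4 others, 3 did. A match is a description of sequence only. Windows were not used for Hspa8, Hspa13, Hsp90aa1, Hspb2, Cryab, Hyou1 and Manf.

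The integrated stress response lowers general translation and lets the factor ATF4 raise genes of amino acid supply. Of its 48 listed genes, 28 were tested; 26 rose and 2 fell, with a median log2 change of 2.30. Among the regulators, Atf4 rose from 71.8, 57.3, 56.8 and 62.0 to 321, 342, 375 and 408 CPM (5.83-fold) and Ddit3, which encodes the stress factor CHOP, from 6.09, 5.93, 5.61 and 6.08 to 57.3, 72.2, 85.5 and 67.8 CPM (11.9-fold). All 5 feedback genes tested rose. Ppp1r15a, the phosphatase subunit GADD34 that restores translation, went from 18.4, 14.9, 18.6 and 19.1 to 291, 305, 314 and 463 CPM (19.3-fold; log2 4.18, SE 0.14, limma adjusted p 1.3e-16), with mouse 4 above the other 3. Trib3, a pseudokinase that restrains ATF4, went from 0.659, 0.642, 0.935 and 0.967 to 31.0, 33.6, 39.6 and 45.8 CPM (46.8-fold), without overlap.

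Of 7 amino acid synthesis genes tested, 5 rose and 2 fell. Asns, asparagine synthetase, rose from 3.29, 4.01, 4.94 and 3.87 to 54.5, 68.3, 83.5 and 80.8 CPM (17.8-fold), and the mitochondrial folate enzyme gene Mthfd2 rose by a log2 change of 3.15 and the proline synthesis gene Aldh18a1 by 2.91. The folate enzyme gene Shmt2 (log2 -1.88) and Cth, which makes cysteine from cystathionine (-1.24), were the 2 that fell. All 5 amino acid transporters tested rose, led by the leucine carrier Slc7a5, from 3.13, 4.49, 2.27 and 4.28 to 52.2, 48.1, 56.4 and 60.5 CPM, and the arginine carrier Slc7a1 (log2 3.62). All 5 tRNA synthetases tested rose, by log2 changes of 1.14 (Gars) to 1.57 (Aars, 78.2, 80.4, 109 and 87.0 CPM in controls and 225, 266, 277 and 291 CPM after injury). Gdf15, a secreted stress hormone, rose from 5.11, 5.13, 6.28 and 4.14 to 124, 100.1, 104 and 142 CPM (22.7-fold).

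For this group the windows of Trib3 (chr2:152344011-152344310, minus strand) and Asns (chr6:7693160-7693459, minus strand) are shown because these 2 genes led the feedback and synthesis branches. Capitals mark the composite CHOP-ATF4 element, TGATGNAAN or its reverse complement.
Trib3: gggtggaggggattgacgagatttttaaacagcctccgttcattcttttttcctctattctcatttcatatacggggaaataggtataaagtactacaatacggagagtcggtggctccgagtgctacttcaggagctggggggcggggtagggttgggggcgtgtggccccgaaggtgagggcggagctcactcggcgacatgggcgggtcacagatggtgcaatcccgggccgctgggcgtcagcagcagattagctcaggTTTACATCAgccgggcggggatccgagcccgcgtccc
Asns: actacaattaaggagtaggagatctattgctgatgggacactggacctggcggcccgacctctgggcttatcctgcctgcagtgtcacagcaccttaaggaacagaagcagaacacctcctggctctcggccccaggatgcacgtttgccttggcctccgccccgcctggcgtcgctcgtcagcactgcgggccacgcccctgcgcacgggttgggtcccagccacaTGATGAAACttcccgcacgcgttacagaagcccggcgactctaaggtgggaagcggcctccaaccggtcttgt

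The element begins 14 bases after the start in Trib3, on the opposite strand, and 23 bases before it in Asns. It was found in 5 of the 21 tested members with a window (23.8%) and in 4.50% of all genes with a window (1215 of 27025). The members holding it were Trib3, Asns, Gars, Nupr1 and Aars, all of which rose, and 15 others that rose did not hold these letters in this window. Windows were not used for Eif4ebp1, Cth, Slc7a5, Slc1a5, Cars, Nars and Wars. Of the proteasome, which degrades tagged proteins, only 9 of 48 listed genes were in the table; 8 rose and 0 fell, with a median log2 change of 1.15. Psmd11, a subunit of its regulatory cap, rose from 71.1, 62.9, 86.4 and 72.5 to 182, 208, 227 and 279 CPM, and the core subunit gene Psma5 from 67.0, 61.7, 72.7 and 65.2 to 154, 181, 178 and 192 CPM.

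Genes that handle globin, heme and iron went both ways. Of 55 listed genes, 34 were in the table and 33 were tested; 18 rose and 15 fell, with a median log2 change of 0.40, a split near that of all genes tested (48.8% higher and 46.5% lower, median 0.31). All 5 tested genes of the uptake complex fell, which are the receptor genes Cubn and Lrp2, Amn, the adaptor gene Dab2 and the chaperone gene Lrpap1. Cubn, which encodes the myoglobin-binding receptor cubilin, dropped from 344, 365, 427 and 310.3 CPM to 32.9, 56.1, 47.0 and 56.1 CPM (7.53-fold lower; log2 -2.91, SE 0.19, limma adjusted p 5.6e-12). Lrp2, which encodes megalin, dropped from 1061, 1106, 1388 and 1085 to 147, 249.5, 231 and 225 CPM (5.44-fold lower), and the cubilin partner Amn fell by 1.93 on the log2 scale. In both receptors mouse 1 was the lowest of the injured mice, and no injured value reached a control.

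Of 5 listed heme breakdown genes, 2 were tested and both rose. Hmox1, the heme oxygenase that opens the heme ring, measured 30.5, 31.3, 44.9 and 27.6 CPM in controls and 1288, 986, 1016 and 1603 CPM after rhabdomyolysis, 36.4-fold (log2 5.14, SE 0.19, limma adjusted p 5.3e-16). Mouse 4 was highest, and the lowest injured mouse was more than 20 times the highest control. Blvrb, a biliverdin reductase, rose from 17.5, 12.8, 15.8 and 14.4 to 57.8, 69.7, 73.0 and 85.3 CPM. Bach1, which represses Hmox1 until heme binds it, also rose, from 34.4, 35.3, 32.1 and 32.7 to 54.5, 66.5, 53.7 and 84.6 CPM. Hp, the hemoglobin-binding plasma protein haptoglobin, was dominated by 1 animal. Its values were 0.165, 0.481, 0.401 and 0.276 CPM in controls and 5.39, 2.66, 209 and 2.95 CPM after injury, so that mouse 3 stood far above the other 3, which were themselves above every control. The log2 change of Hp was 3.15, and 1.77 without mouse 3, where the call held.

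Heme synthesis and iron genes were mixed. Of 9 tested genes of heme transport and synthesis, 7 fell, among them Alad (log2 -1.67) and Uros (-1.82) of the synthesis pathway, while the heme exporter gene Mfsd7b (FLVCR1) rose from 20.3, 17.3, 10.95 and 12.0 to 75.5, 57.3, 41.1 and 70.4 CPM and the lysosomal heme carrier gene Slc48a1 from 238, 214, 234 and 237 to 275, 303, 291 and 357 CPM. Fth1, the ferritin heavy chain that stores iron, was abundant in both groups, at 5466, 5311, 6347 and 5633 CPM and 6857, 7663, 6924 and 10051 CPM, a ratio of only 1.38. Tfrc, the transferrin receptor, rose 1.63-fold and the metalloreductase gene Steap1 9.85-fold. The ferritin call was lost without mouse 4, its highest value (log2 0.45 with it and 0.33 without it).

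The antioxidant programme of the factor NRF2 rose unevenly. Of 50 listed targets and regulators, 37 were in the table and 36 were tested. Of these, 29 rose, 5 fell and 2 were not called, with a median log2 change of 1.26. The tested genes include 4 regulators, and Trib3 and Slc6a9, which are also members of the integrated stress response list. Nfe2l2, the gene of NRF2 itself, rose 2.20-fold, from 90.3, 85.3, 86.0 and 91.2 to 202, 196, 193 and 187 CPM. Maff, a small MAF partner, went from 1.98, 2.89, 3.87 and 3.18 to 106, 111, 103 and 108 CPM, and the selective autophagy receptor gene Sqstm1 from 577, 543, 785 and 556 to 2288, 2527, 2742 and 3098 CPM. No injured value of these 3 genes reached a control, and control mouse 7 was the highest for Maff and Sqstm1.

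Among the effectors, Srxn1, the sulfiredoxin that repairs oxidized peroxiredoxins, rose from 75.9, 84.5, 87.0 and 89.2 to 1347, 1842, 1521 and 2733 CPM (22.1-fold; log2 4.40, SE 0.17, limma adjusted p 1.2e-15), with mouse 4 highest. Txnrd1, thioredoxin reductase, rose from 186, 175, 226 and 192 to 826, 1001.2, 971 and 1326 CPM (5.29-fold). Akr1b8, an aldo-keto reductase, rose from 1.48, 2.08, 2.54 and 2.21 to 101, 102, 125 and 110.0 CPM (52.7-fold). Nqo1, the quinone reductase often used as an NRF2 readout, rose only from 56.5, 50.7, 65.1 and 66.2 to 103, 118, 114 and 192 CPM (2.21-fold), led by mouse 4. The NADPH-supplying genes G6pdx (log2 1.83) and Pgd (1.83) rose, whereas malic enzyme, Me1, fell from 773, 783, 952 and 802 to 229, 308, 297 and 296 CPM.

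Glutathione genes moved both ways. Slc7a11 rose as described, and so did Chac1, which degrades glutathione, from 0.494, 0.642, 0.267 and 0.414 to 12.5, 16.2, 21.3 and 20.2 CPM (38.6-fold). Gss, glutathione synthetase, fell by 0.95 on the log2 scale, and so did Ggt1 (log2 -2.13), which splits glutathione at the brush border, and Ggct (-2.13), a gamma-glutamyl cyclotransferase. The list median was 1.70 in mouse 4 and 1.11 to 1.28 in the other 3, the highest of the 4 mice for this list.

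The windows of Srxn1 (chr2:152105274-152105573, plus strand) and Txnrd1 (chr10:82858956-82859255, plus strand) are given as the promoters of the 2 thioredoxin-system genes just described. Capitals mark the antioxidant response element, TGACNNNGC or its reverse complement, which may overlap AP-1 motifs.
Srxn1: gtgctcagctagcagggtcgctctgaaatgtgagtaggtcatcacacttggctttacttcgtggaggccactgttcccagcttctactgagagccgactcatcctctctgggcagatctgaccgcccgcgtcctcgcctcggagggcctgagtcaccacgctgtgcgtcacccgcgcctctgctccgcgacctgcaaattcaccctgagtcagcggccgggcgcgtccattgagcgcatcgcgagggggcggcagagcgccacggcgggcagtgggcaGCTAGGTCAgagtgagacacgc
Txnrd1: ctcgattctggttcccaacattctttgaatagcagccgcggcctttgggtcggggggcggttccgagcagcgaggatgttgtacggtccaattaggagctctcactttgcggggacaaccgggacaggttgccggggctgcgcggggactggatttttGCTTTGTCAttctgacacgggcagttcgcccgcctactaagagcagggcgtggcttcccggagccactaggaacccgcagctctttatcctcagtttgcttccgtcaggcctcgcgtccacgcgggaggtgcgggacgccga

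The element lies on the opposite strand in both, with its first base 29 bases after the start in Srxn1 and 92 bases before it in Txnrd1. Of the tested targets with a window, 15 of 31 held the element (48.4%), against 13.99% of all genes with a window (3781 of 27025). It was in 12 of the 24 that rose and 3 of the 7 others. Windows were not used for Gsr, Prdx6, Akr1b3, Gsta4 and Abcc1.

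Immediate early genes, which respond within minutes to growth factors and stress and encode AP-1 and related factors, were high at 24 h. No other time after rhabdomyolysis was measured. Of 43 listed genes, 35 were tested; 34 rose, 0 fell and the remaining gene, Mycn, was not called. The median log2 change was 2.64, or 2.69 with genes that had no control read at their bound. Atf3, a stress-induced member of the family, rose from 0.988, 0.642, 1.07 and 0.552 to 101, 85.5, 97.7 and 86.2 CPM (114-fold; log2 5.70, SE 0.18, limma adjusted p 4.0e-17). Egr1 rose from 3.46, 6.09, 5.74 and 5.52 to 122, 108, 131 and 134 CPM (23.8-fold) and Myc, a driver of growth and ribosome production, from 2.64, 4.49, 3.74 and 2.76 to 60.6, 78.8, 95.2 and 52.3 CPM (21.1-fold). Fos itself reached 13.6, 10.4, 10.7 and 11.9 CPM from 0.165, 0.321, 0.534 and 0.138 CPM, and the MAP kinase phosphatase gene Dusp5 rose by a log2 change of 4.07. Groups did not overlap for any of these.

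Ligands and receptors of the EGF family, which drive tubular repair, were split. Of 20 listed genes, 11 were in the table and 10 were tested; 8 rose and 2 fell. Hbegf, a ligand shed from injured epithelium, rose from 12.2, 14.1, 12.6 and 10.8 to 77.0, 85.0, 86.1 and 92.9 CPM (6.87-fold), whereas Egf was among the largest falls of all genes. Egfr, the receptor, rose only from 44.1, 48.6, 56.9 and 43.8 to 62.6, 93.3, 89.7 and 83.2 CPM, and Erbb3, a receptor for neuregulins, fell from 83.3, 101, 85.2 and 108 to 29.0, 32.7, 28.4 and 43.3 CPM. The feedback inhibitor genes Spry2 (log2 1.78) and Spry4 (1.44) rose.

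Of 102 listed cytokine genes and receptors, 69 were in the table and 63 were tested; 56 rose and 6 fell, with a median log2 change of 1.62. Tnfrsf12a, the receptor of the cytokine TWEAK, rose from 13.5, 13.8, 14.8 and 16.0 to 439, 518, 476 and 573 CPM (34.5-fold; log2 5.01, SE 0.14, limma adjusted p 7.5e-18). Ptgs2, inducible cyclooxygenase, rose from 0.329, 0.160, 0 and 0.8287 to 18.2, 25.0, 26.8 and 33.0 CPM (ratio 78.2, counting interval 41.2 to 171), and Socs3, the feedback inhibitor of IL-6 family signalling, by a log2 change of 4.10. These rises were shared by all 4 mice.

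The secreted cytokine genes Il11, Il6 and Il1rn were at lower levels after injury than Tnfrsf12a. Il11, an IL-6 family cytokine, had 3 reads over all controls and 19.002, 13.1, 30.1 and 5.34 CPM in the injured mice, and Il6 had no control read and 4.82, 4.24, 5.32 and 1.02 CPM, at least 8.6-fold higher. In both, mouse 4 had the least. Il1rn, the antagonist of the IL-1 receptor, rose to 21.2, 17.6, 25.4 and 9.65 CPM, and the IL-6 family gene Lif by a log2 change of 4.04. The falls included Cxcl12, a chemokine of stroma and distal tubule, from 193, 121, 116 and 130.1 to 28.6, 20.0, 37.2 and 21.2 CPM, Il15, from 12.8, 10.7, 10.95 and 13.1 to 2.93, 2.46, 2.38 and 1.59 CPM, and Cxcl9 (log2 -1.63). The summed level of markers of recruited myeloid cells was 95.7 to 232 CPM after injury and 38.7 to 50.2 CPM in controls, and its part in the cytokine rises was not tested.

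Genes of matrix and its turnover rose in 42 of the 45 tested members (56 listed, 46 in the table), with 2 falls and a median log2 change of 2.23. Mmp10, the protease stromelysin 2, had no control read and 44.2, 68.4, 65.6 and 60.9 CPM after injury, at least 134-fold higher. In the plasminogen system, Plaur, the urokinase receptor, rose from 2.64, 2.25, 1.07 and 3.31 to 153, 193, 216 and 194 CPM. Spp1, the secreted phosphoprotein osteopontin, was among the most abundant transcripts, at 1076, 959, 979 and 895 CPM in controls and 30158, 22436, 22484 and 25286 CPM after injury (25.7-fold). Injured and control ranges were separate for these 3 genes. Bmp7, an antifibrotic factor of the nephron, fell from 74.8, 78.6, 79.9 and 76.2 to 23.4, 17.6, 18.6 and 23.5 CPM, and Timp3, another metalloproteinase inhibitor, fell by 1.17 on the log2 scale. The summed level of fibroblast and pericyte markers was 647 to 1592 CPM after injury and 160.5 to 213 CPM in controls. Of these 8 markers, 3 (Col1a1, Col1a2 and Col3a1) are also members of the matrix list, and the other 5 summed to 431 to 769.7 CPM against 98.6 to 118 CPM. The part of these cells in the matrix rises was not tested.

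All 36 listed markers of injured tubule were tested; 35 rose, with a median log2 change of 3.59, and Itgb6, an epithelial integrin subunit, fell from 143, 125, 174 and 128 to 80.2, 84.5, 124 and 66.9 CPM. The Itgb6 call was lost with quantile normalization (log2 -0.37). Sox9, the transcription factor in the series title, rose from 0.988, 0.481, 1.202 and 0.552 to 45.7, 57.6, 45.8 and 38.6 CPM (58.2-fold; log2 4.74, SE 0.21, limma adjusted p 7.3e-15), with a narrow spread among the injured mice. Vgf, the secreted neuropeptide precursor in the title, had no read in any control and 43.7, 25.9, 42.2 and 19.1 CPM after injury, at least 73.1-fold higher. Mice 1 and 3 carried more Vgf than mice 2 and 4.

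Genes of the proximal tubule fell. Of 95 listed genes, 78 were tested; 76 fell and 2 rose, with a median log2 change of -2.51. The summed CPM of these genes was 17304 to 21750.3 in the injured mice and 87433 to 114578 in controls. Hnf4a, the transcription factor that maintains the mature cell, dropped from 1054, 1171, 1428 and 1282 to 88.9, 129, 113 and 162 CPM (10.0-fold lower; log2 -3.34, SE 0.18, limma adjusted p 2.1e-13). Of the 12 transcription factors listed, 7 were tested and all 7 fell, among them Maf (log2 -2.97).

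Transporters and enzymes fell with them. Slc5a8, a monocarboxylate cotransporter, dropped from 349, 351, 391.8 and 364 to 16.8, 26.9, 21.7 and 18.3 CPM (17.4-fold lower), and Pdzk1, a scaffold of apical transporters, from 1282, 1216, 1582 and 1301 to 102, 99.7, 95.8 and 85.3 CPM (14.1-fold lower). Slc22a6, the basolateral organic anion transporter OAT1, dropped from 1009, 1071, 1359 and 986 to 104, 135, 133 and 101 CPM. Gatm, which makes the creatine precursor guanidinoacetate, dropped from 954, 1036, 1245 and 992 to 61.1, 49.7, 42.5 and 51.3 CPM (20.7-fold lower). In each of the 4, the 4 injured mice lay within 2-fold of each other and far under the controls. The 2 rises were the efflux pump genes Abcb1b (log2 1.41) and Abcc4 (1.202).

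Genes of more distal segments also fell, with a smaller change in the median of the whole list. Of 60 listed genes, 36 were tested, of which 33 fell, 2 rose and 1 was not called, with a median log2 change of -1.45. The median was -2.17 for the thick ascending limb, -1.54 for the distal convoluted tubule, -1.56 for intercalated cells and -0.61 for principal cells. Medians of the proximal tubule roles ran from -2.77 to -1.87. Slc12a1, the loop diuretic-sensitive NKCC2 of the thick ascending limb, dropped from 772, 845, 616 and 729 to 61.4, 69.4, 63.4 and 151 CPM, with mouse 4 at more than 2-fold the level of the other 3. Pvalb, the calcium-binding parvalbumin of the distal convoluted tubule, dropped from 23.1, 25.5, 19.5 and 21.8 to 0.662, 0.690, 0 and 0.114 CPM (61.4-fold lower), which left 15 reads over the 4 injured mice. Slc4a1, the anion exchanger of acid-secreting intercalated cells and of red cells, dropped from 39.9, 52.0, 47.4 and 46.3 to 4.44, 4.24, 2.76 and 1.70 CPM. Of the 5 principal cell genes tested, 3 fell, among them Aqp3, a basolateral water channel (log2 -1.25), while the epithelial factor gene Elf5 (1.12) and the sialyltransferase gene St6gal1 (1.04) rose.

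Vitamin D and mineral genes fell in 17 of the 23 tested (31 listed), with 3 rises. Cyp24a1, the enzyme that inactivates vitamin D, dropped from 40.8, 94.5, 225 and 128 to 3.40, 3.74, 17.1 and 6.36 CPM (log2 -3.84, SE 0.43, limma adjusted p 2.2e-08). Both groups were spread over about 5-fold, and they did not overlap. Vdr, the vitamin D receptor, dropped from 343, 399.8, 408 and 431 to 71.6, 70.2, 73.0 and 77.2 CPM, and Kl, the FGF23 co-receptor klotho, from 1105, 1317, 1237 and 1262 to 144, 165, 132 and 154 CPM (8.26-fold lower), with little spread in either. The activating enzyme gene Cyp27b1 did not pass the test, at 3.13, 9.46, 5.21 and 8.15 and 7.75, 9.85, 2.66 and 10.9 CPM. The phosphate cotransporter gene Slc34a1 fell 5.44-fold, whereas the widely expressed phosphate carrier gene Slc20a1 rose (log2 1.66), as did the calcium channel gene Trpv6 (1.43) and the calcium pump gene Atp2b1 (1.17).

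Fatty acids are the main fuel of the proximal tubule, and their oxidation genes fell in 33 of the 40 tested (61 listed), with 5 rises and a median log2 change of -1.82. Slc27a2, which takes up and activates fatty acids, dropped from 4899, 3861, 5193 and 4598 to 387, 491, 496 and 559 CPM (9.60-fold lower; limma adjusted p 3.6e-13). All 9 peroxisomal genes tested fell, led by Hao2 (log2 -3.58) and Ehhadh (-3.17), and 12 of the 13 of mitochondrial oxidation fell. The risers were Plin2, the coat protein of lipid droplets, from 87.8, 77.8, 100.2 and 81.2 to 791, 1131, 846 and 1099.8 CPM (11.1-fold), Hilpda (log2 1.22), which slows lipolysis in droplets, Acsl4 (2.13), which loads polyunsaturated fatty acids, Pdk4 (1.81), which restrains pyruvate oxidation, and the thioesterase gene Acot2 (1.16).

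Glucose genes went opposite ways by pathway. All 8 gluconeogenesis genes tested fell, G6pc, glucose-6-phosphatase, from 396, 478, 418 and 441 to 56.0, 19.8, 18.3 and 29.5 CPM (14.02-fold lower). Of 10 glycolysis genes tested, 7 rose and 3 fell. Hk2, hexokinase 2, rose from 0.165, 0.160, 0.534 and 0.552 to 14.7, 18.5, 22.4 and 9.42 CPM and Pkm, pyruvate kinase, from 215, 231, 229 and 215 to 664, 568, 563 and 582 CPM, while Pfkm (log2 -1.83), Tpi1 (-1.18) and Aldoc (-1.08) fell. The glucose carrier gene Slc2a1 and the lactate carrier gene Slc16a1 were among the risers, by log2 changes of 2.26 and 2.47.

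Genes of mitochondrial respiration fell without exception. All 55 tested of 63 listed genes fell, over a range of -2.33 to -0.44 with a median of -1.22. Idh2, the mitochondrial isocitrate dehydrogenase, dropped from 564, 501, 613 and 530.0 to 113, 91.3, 91.5 and 147 CPM, Ndufs1, the largest subunit of complex I, from 296, 271, 362 and 307 to 101, 108, 103 and 109 CPM, and Atp5a1 of ATP synthase from 2174, 2166, 2775 and 2196 to 913, 839, 844 and 1008 CPM. Genes of complexes I to III had a median of -1.29, those of complexes IV and V -1.09 and those of the citric acid cycle -1.35. With quantile normalization 52 of the 55 fell and the list median was -0.71.

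Water, acid-base and organic solute genes fell in 9 of the 14 tested (25 listed) and rose in 5. Aqp1, the water channel of the proximal tubule and descending limb, dropped from 815, 622, 797 and 675 to 96.6, 97.8, 119.6 and 108 CPM, and Slc38a3, the glutamine carrier used for acid excretion, from 41.0, 19.4, 41.4 and 32.6 to 5.67, 5.02, 5.61 and 7.95 CPM. Those that rose included Sgk1, a kinase of sodium and osmotic regulation (76.6, 51.8, 38.5 and 57.0 to 265, 178, 155 and 298 CPM), the amino acid carrier gene Slc38a2 (log2 2.68), the aldose reductase gene Akr1b3 (3.80) and the inositol carrier gene Slc5a3 (1.47). The Akr1b3 controls were uneven, at 1.65, 0, 10.8 and 29.8 CPM, and its log2 change was 2.98 without control mouse 6 and 4.62 without control mouse 8. Vasoactive and hypoxia genes were mixed, with 12 of 20 tested higher (41 listed) and 7 lower. Edn1, the vasoconstrictor endothelin 1, rose from 1.15, 1.44, 1.202 and 1.52 to 8.98, 10.0, 7.98 and 8.74 CPM. Ace, angiotensin-converting enzyme, fell from 326, 337, 386 and 259 to 65.8, 76.0, 68.2 and 67.1 CPM, and Car9, a carbonic anhydrase induced by hypoxia, from 12.7, 10.4, 9.22 and 12.2 to 1.61, 2.27, 1.14 and 2.95 CPM.

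Ribosome biogenesis, the nucleolar assembly of new ribosomes, rose in all 32 tested of 44 listed genes, with a median log2 change of 1.21. Nop58, a core protein of the box C/D particles that methylate ribosomal RNA, rose from 24.5, 21.3, 28.1 and 19.3 to 139, 151, 178 and 123 CPM (6.33-fold), and Ncl, nucleolin, from 345, 352, 361 and 340.2 to 771, 1012, 936 and 962 CPM. The smallest change was 0.73 for Nhp2, so the members moved together within less than 2 log2 units.

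Cell cycle genes rose in 34 of 48 tested (74 listed) and fell in 7, with differences by phase. For G1 and S, 12 of 14 rose, among them the replication clamp gene Pcna, from 41.5, 40.7, 48.5 and 43.6 to 89.2, 93.8, 98.2 and 115 CPM, and the helicase gene Mcm5, from 6.26, 7.70, 5.08 and 4.97 to 14.2, 11.6, 17.96 and 5.90 CPM, where mouse 4 lay within the controls. For G2 and M, 3 of 11 rose and 4 fell. Top2a, a marker of dividing cells, did not pass the test, at 3.46, 3.85, 3.87 and 3.04 and 1.80, 2.66, 4.09 and 2.27 CPM, and Cenpe, a motor protein of the kinetochore, fell (log2 -1.05). With quantile normalization Top2a was called lower (log2 -0.58). Of 23 inhibitors and p53 targets, 19 rose, led by Cdkn1a, the polo-like kinase gene Plk3 (log2 3.95) and the ectodysplasin receptor gene Eda2r (3.16).

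Cell death genes rose in 26 of 33 tested (51 listed, 34 in the table) and fell in 2. Of 7 necroptosis and pyroptosis genes tested, 5 rose and 2 were not called. The groups did not overlap for 2 of the 7, against 89.2% of all genes tested. Those 2 were Ripk3 and Mlkl of the necroptosis pathway. Ripk3, the kinase, rose from 0.165, 0.962, 0.267 and 0.691 to 8.32, 8.67, 7.98 and 6.02 CPM and Mlkl, the pore former, from 1.81, 1.44, 1.60 and 1.24 to 14.4, 18.3, 18.7 and 10.9 CPM (10.2-fold). Ferroptosis is death by iron-dependent lipid peroxidation, and 7 of 9 of its genes tested rose, both those that protect (Slc7a11, and Gch1 with a log2 change of 3.15) and those that sensitize (Acsl4). Nox4, a superoxide- and peroxide-producing oxidase, fell from 732, 866, 646 and 799 to 221, 199.9, 122 and 278 CPM, and the apoptosis gene Bid fell by 1.02 on the log2 scale. Complement and acute phase genes rose in 14 of 21 tested (37 listed, 22 in the table) and fell in 4. Fgb, the fibrinogen beta chain, rose from 1.48, 2.89, 2.27 and 1.10 to 67.7, 135, 101 and 34.7 CPM and C3, the central complement protein, from 11.5, 13.6, 14.96 and 8.70 to 39.1, 43.7, 67.3 and 26.1 CPM, whereas C1rl (log2 -2.64), Cfb (-1.98) and C2 (-1.66) of the complement cascade fell, as did Pigr (-0.88), the epithelial transporter of immunoglobulins.

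Markers of other cells of the cortex were measured beside these changes. Endothelial markers rose in all 8 tested of 16 listed, Pecam1 from 66.2, 72.5, 58.5 and 60.8 to 204, 149, 169.9 and 169.7 CPM, and their summed level was 856 to 1258 CPM after injury against 360.3 to 408 CPM. Fibroblast and pericyte markers rose in 7 of 8 tested of 12, Acta2, the smooth muscle actin of pericytes and myofibroblasts, from 25.0, 25.2, 29.0 and 21.4 to 261, 144, 151 and 114 CPM. Markers of recruited myeloid cells rose in 14 of 14 tested of 20, without overlap between the groups for 10 of them, against 89.2% of all genes tested. The decoy and amplifying receptor genes Il1r2 and Trem1 had no control read. Chil3, a lectin of such cells, reached 13.7, 8.18, 16.2 and 6.24 CPM from 0.329, 0, 0.267 and 0.276 CPM. The summed levels of the endothelial, fibroblast and myeloid markers did not overlap between the groups.

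Of the resident macrophage markers, 6 of 8 tested (12 listed) rose and 2 fell, while the summed level, 229 to 370.5 CPM, overlapped that of controls, 300.4 to 343 CPM. Cd68, a lysosomal protein, rose from 3.79, 2.89, 3.61 and 2.35 to 36.9, 33.6, 38.4 and 24.3 CPM, whereas Csf1r, the growth factor receptor of macrophages, fell from 62.6, 45.9, 58.4 and 50.1 to 38.2, 25.7, 34.0 and 16.8 CPM and the lipid carrier gene Apoe fell by 0.71 on the log2 scale. The Apoe call was lost with quantile normalization (log2 -0.24). Of 5 podocyte markers tested, 2 rose and 2 fell, with Podxl (log2 1.21) and Ptpro (0.90) higher and Clic3 (-0.86) and Magi2 (-0.67) lower, and their summed level was 674 to 968 CPM after injury against 373 to 513 CPM in controls, without overlap. Of 16 lymphocyte markers 2 were tested: the T cell coreceptor gene Cd8a fell (log2 -0.95) and the T cell kinase gene Lck rose (0.91).

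All 7 tested of 16 erythroid and muscle markers fell, with a median log2 change of -2.45 and a summed level of 387 to 493 CPM against 1181 to 2919 CPM. The 7 include Slc4a1, which intercalated cells also express and which had the largest fall of the list (log2 -3.52). Hbb-bs, a beta globin with near-identical copies, was at 125, 271, 488 and 548 CPM in controls and 94.1, 38.1, 51.8 and 26.6 CPM after injury. Controls were themselves spread over more than 4-fold. The listed genes of skeletal muscle were not among those tested.

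The 4 rhabdomyolysis mice varied less in the integrated stress response and proximal tubule lists than in fibroblast and resident macrophage markers. List medians of mice 1 to 4 were 2.32, 2.16, 2.37 and 2.04 for the integrated stress response and -2.66, -2.52, -2.59 and -2.32 for the proximal tubule. For fibroblast and pericyte markers they were 2.80, 1.99, 2.45 and 1.23, and for resident macrophage markers 1.76, 0.91, 1.54 and 0.32. Mouse 4 was thus the lowest in both, and it was the lowest in complement and acute phase genes too (1.78, 0.98, 1.69 and 0.64). Col3a1, a fibrillar collagen, measured 461, 244, 423 and 104 CPM in mice 1 to 4 against 32.8, 38.8, 28.7 and 22.9 CPM in controls, and Tnc, the matrix protein tenascin C, 70.8, 37.7, 72.2 and 26.7 CPM against 1.98, 1.28, 1.07 and 1.38 CPM. For Ccr2, the receptor of inflammatory monocytes, mouse 4 lay within the control range, at 14.2, 8.77, 20.0 and 3.52 CPM against 5.93, 5.29, 5.74 and 3.31 CPM. The Ccr2 call was lost without mouse 1 (log2 0.71), mouse 3 (0.55) or control mouse 8 (0.71). Without mouse 4 the counts of members called higher were 42 for matrix, 7 for fibroblast and pericyte and 14 for recruited myeloid genes.

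Among genes with at least 10 CPM after injury, the largest spread between mice (as the SD of log2(CPM + 1)) was in Hp, Sprr2a1 with its identical row Sprr2a2, Tmem254b and Car3. Car3, carbonic anhydrase III, fell to 8.6, 4.43, 49.0 and 5.56 CPM from 83.7, 115, 103 and 60.2 CPM, with mouse 3 the nearest to controls. Its log2 change was -2.96, and -3.67 without mouse 3. Sprr2a1, a small proline-rich protein of stressed epithelium, was at 1.98, 5.77, 0.134 and 6.22 CPM in controls and 0.851, 10.5, 25.7 and 13.96 CPM after injury (log2 1.42). Its groups overlapped, and its call was lost on leaving out control mouse 5 or 7 or rhabdomyolysis mouse 2, 3 or 4 (log2 0.87 to 1.33). It was also lost with quantile normalization (1.26), with only these 2 groups in the fit (1.42) and with a pseudocount of 0.1 CPM (1.92). The log2 change was 2.21 without mouse 1. The membrane protein gene Tmem254b fell from 261, 292, 437 and 329 to 13.05, 129, 135 and 88.2 CPM, with mouse 1 the lowest (log2 -2.24, and -1.48 without mouse 1).

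**Figure D3:**
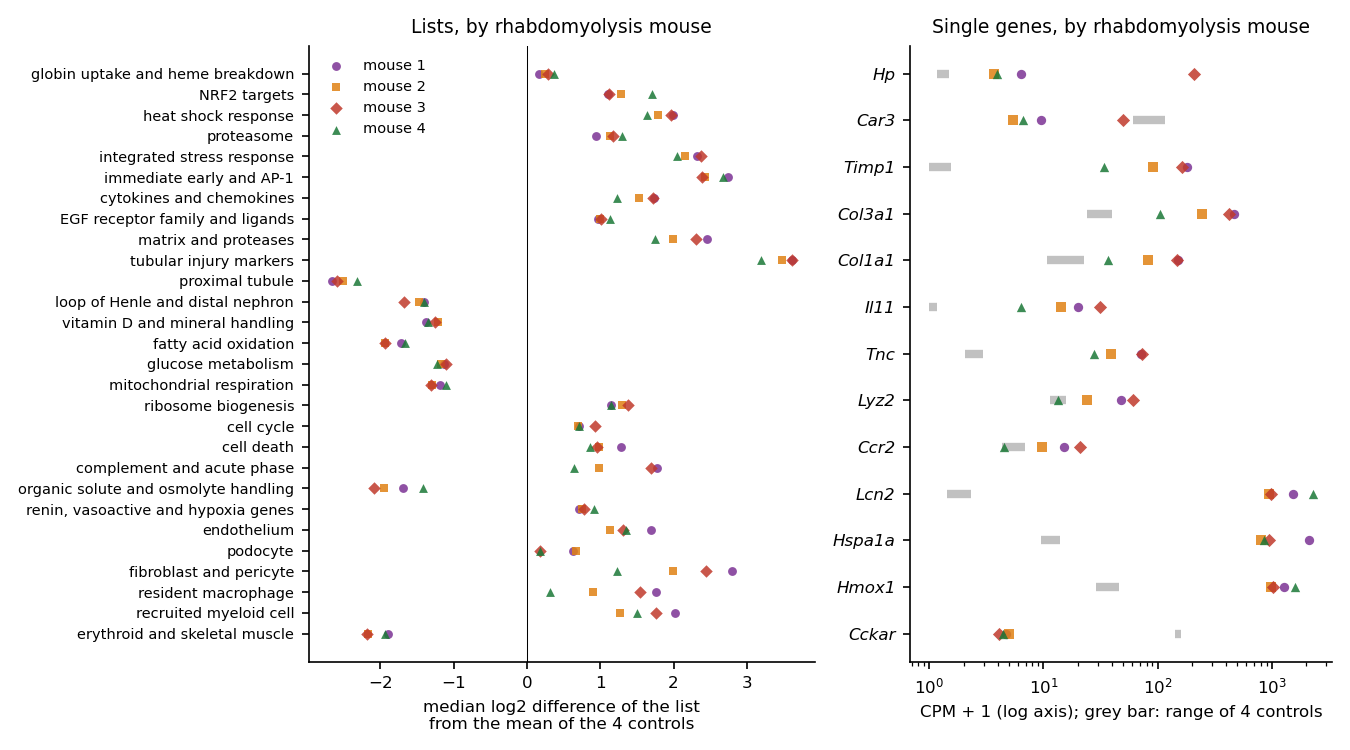
Left, the median log2 difference of each list in rhabdomyolysis mice 1 to 4 from the mean of the 4 controls. Right, CPM + 1 (log axis) of 13 genes in the same mice, with a grey bar over the range of the controls. Mouse 4 (green triangles) lies lowest for the fibroblast and pericyte and the resident macrophage lists and for Timp1, Col3a1, Il11, Lyz2 and Ccr2, and mouse 3 (red diamonds) is far above the others for Hp.

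The mice at 72 h of cisplatin show which of these changes were larger or smaller in rhabdomyolysis. They share its controls and differ in time, so injury and time cannot be told apart, and only direct differences between injured mice are used. Against cisplatin, 1215 genes (21.4%) were higher and 1853 (32.7%) were lower in rhabdomyolysis. The share of calls that were higher was 39.6%, and it moved to 47.6% with 75th percentile scaling and 51.7% with quantile normalization. The change after rhabdomyolysis was also set against the change after IRI at the same time, each from its own controls. That difference of effects was above 0 for 1329 genes (23.4%) and below 0 for 1620 (28.6%). Both differences were positive for 730 genes (12.9%) and negative for 1131 (19.9%). Genes entered the table by a change in at least 1 injury, so some could enter through rhabdomyolysis alone. These shares and the list counts below describe that selected table only.

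Chaperones were high against both. Of 31 tested, 20, including all 7 ER chaperones, were higher than in cisplatin and than the IRI effect, and 1 was lower than both. Hspa1a averaged 29.5 ± 2.99 CPM in cisplatin and 15.6 ± 2.42 CPM in IRI (SD, n = 4 each), against 1181 ± 634 CPM in rhabdomyolysis. The log2 difference was 5.16 from cisplatin (SE 0.22, limma adjusted p 4.3e-14) and 6.23 between effects (SE 0.31, limma adjusted p 2.3e-12). Hspa5 averaged 596 ± 27.2 CPM in cisplatin and 486 ± 33.2 CPM in IRI, against 4492 ± 485 CPM. Hspa8 and Dnaja1, which were not called against controls, were higher than in cisplatin (log2 0.97 and 0.89) and than the IRI effect (1.23 and 1.32).

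The integrated stress response and ribosome biogenesis gave further members on the high side. In the first, 14 of 28 were higher than both and 2 were lower than both (0 with 75th percentile scaling or quantile normalization), with all 5 tRNA synthetases among the 14. Ppp1r15a averaged 91.8 ± 9.62 CPM in cisplatin and 20.6 ± 3.03 CPM in IRI, where its controls had 18.1 ± 2.04 CPM. Of 32 ribosome biogenesis genes, 24 were higher than both and 0 were lower. Among NRF2 targets 11 of 36 were higher and 6 lower than both. Slc7a11 averaged 3.04 ± 0.990 CPM in cisplatin and 12.8 ± 7.58 CPM in IRI, against 147 ± 61.2 CPM in rhabdomyolysis, while Nqo1 was lower than in either (log2 -0.85 and -0.94). Of 33 globin, heme and iron genes, 3 were higher than both and 10 were lower than both. Hmox1, 1 of the 3, was higher than in cisplatin by a log2 difference of 2.64 (SE 0.19) and than the IRI effect by 1.44 (SE 0.27), whereas all 3 iron storage and export genes tested were lower than in cisplatin.

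Some genes were many-fold higher in the rhabdomyolysis libraries than in either other injury. Sstr5, a somatostatin receptor, had 19.3, 24.9, 23.8 and 27.6 CPM there and no read in any of the other 16 libraries. Procr, the endothelial protein C receptor, averaged 107 ± 21.4 CPM, against 11.3 ± 2.45 CPM in cisplatin and 2.79 ± 0.548 CPM in IRI. Mmp10 averaged 59.8 ± 10.8 CPM, against 7.56 ± 1.35 CPM in cisplatin and 0.255 ± 0.193 CPM in IRI. Myo18b, a myosin of striated muscle chosen after its values were seen, rose from 0.329, 0, 0.134 and 0.276 to 14.5, 19.5, 20.3 and 47.6 CPM, with mouse 4 highest. It averaged 0.0242 ± 0.0484 CPM in cisplatin and 0.0333 ± 0.0666 CPM in IRI (log2 differences 4.55 and 4.55).

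Genes of respiration and fatty acid oxidation were on the low side. Of 55 respiration genes, 27 were lower than both and 0 were higher, and of 40 fatty acid genes 24 were lower than both and 0 were higher. Of 10 glycolysis genes, 3 were higher than both and 1 was lower than both. Of 23 vitamin D and mineral handling genes, 6 were lower than both (4 with 75th percentile scaling and 3 with quantile normalization) and 2 were higher, a share near the 19.9% of all genes tested that were lower. Cyp24a1, of that list, averaged 7.65 ± 6.44 CPM in rhabdomyolysis, 319.7 ± 37.1 CPM in cisplatin and 476 ± 166 CPM in IRI. The log2 difference was -5.46 from cisplatin (SE 0.43) and -6.52 between effects (SE 0.61). The proximal tubule list went both ways against cisplatin, with 21 of 78 higher and 39 lower (7 and 9 of the 21 organic ion transporters), and had 6 higher and 46 lower than the IRI effect. In all, 31 of the 78 were lower than both and 3 were higher, and Hnf4a was lower than both (log2 -1.52 and -2.86). Cckar averaged 48.3 ± 22.3 CPM in cisplatin and 86.2 ± 19.8 CPM in IRI, far above its rhabdomyolysis level.

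Most p53 targets were higher in cisplatin. Of 23 inhibitors and p53 targets, 19 had their lower value after rhabdomyolysis, but 11 were higher than the IRI effect. Phlda3, a p53-induced inhibitor of AKT, averaged 18.9 ± 1.34 CPM in rhabdomyolysis and 143 ± 11.8 CPM in cisplatin. Among the largest differences in that direction were those in Ces2e, a carboxylesterase (log2 -5.67), Cyp24a1, Psrc1, a spindle-associated protein (-4.85), and 1700007K13Rik, an unnamed transcript (-4.81). Globin genes were low in cisplatin, Hbb-bs at 1.14 ± 2.28 CPM, so that Hbb-bs, Hba-a1 and Hbb-b1 counted among the largest differences over cisplatin, all with near-identical copies. Of early genes, 8 of 35 were higher and 5 lower than in cisplatin, against 22 higher and 0 lower than the IRI effect.

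**Figure D4:**
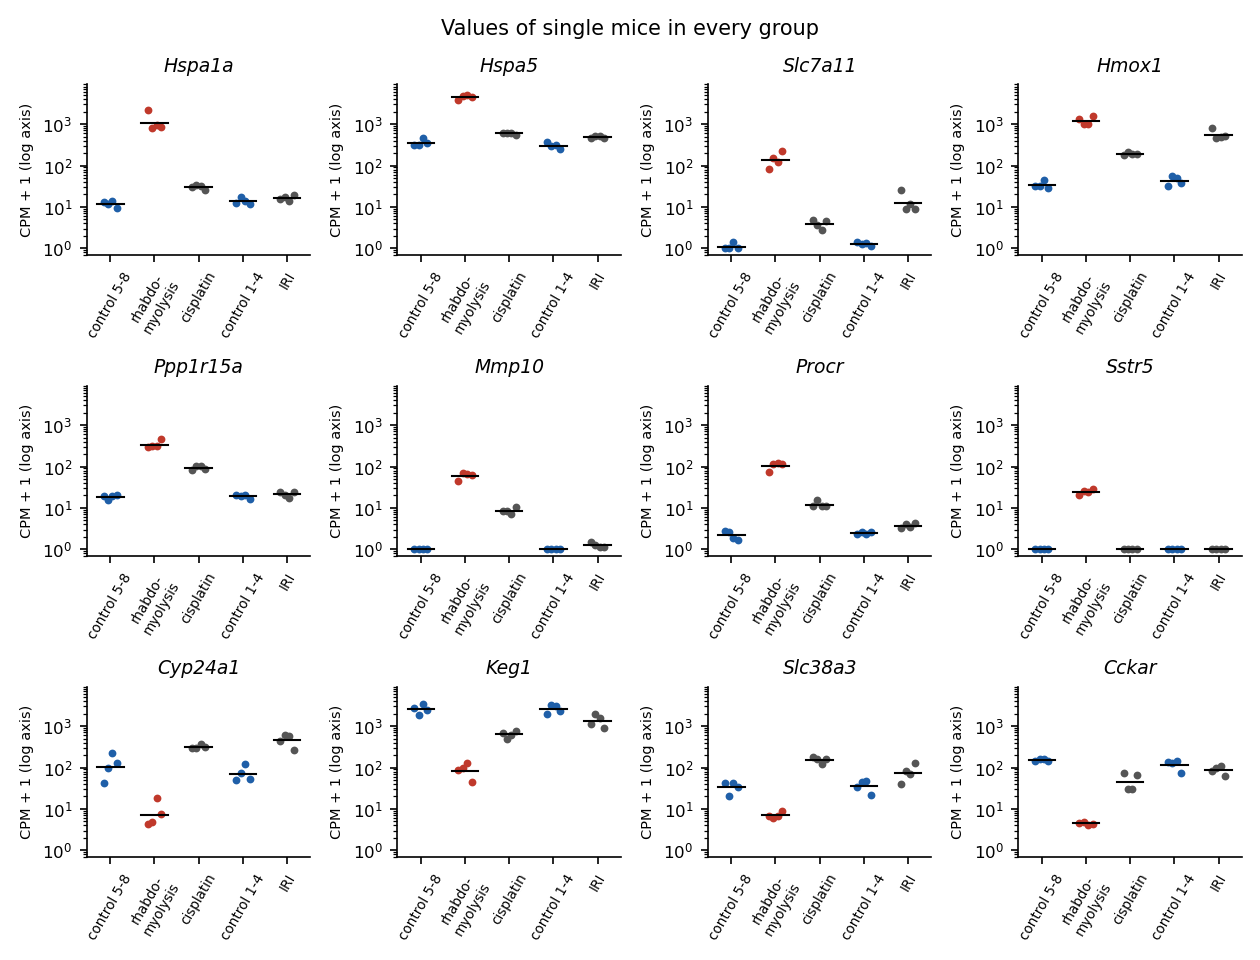
CPM + 1 (log axis) of 12 genes in all 20 libraries, by group, with a bar for each geometric mean. In the first 8 panels the rhabdomyolysis mice (red) lie above every other group, and in the last 4 (Cyp24a1, Keg1, Slc38a3 and Cckar) they lie below every other group.

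**Figure D5:**
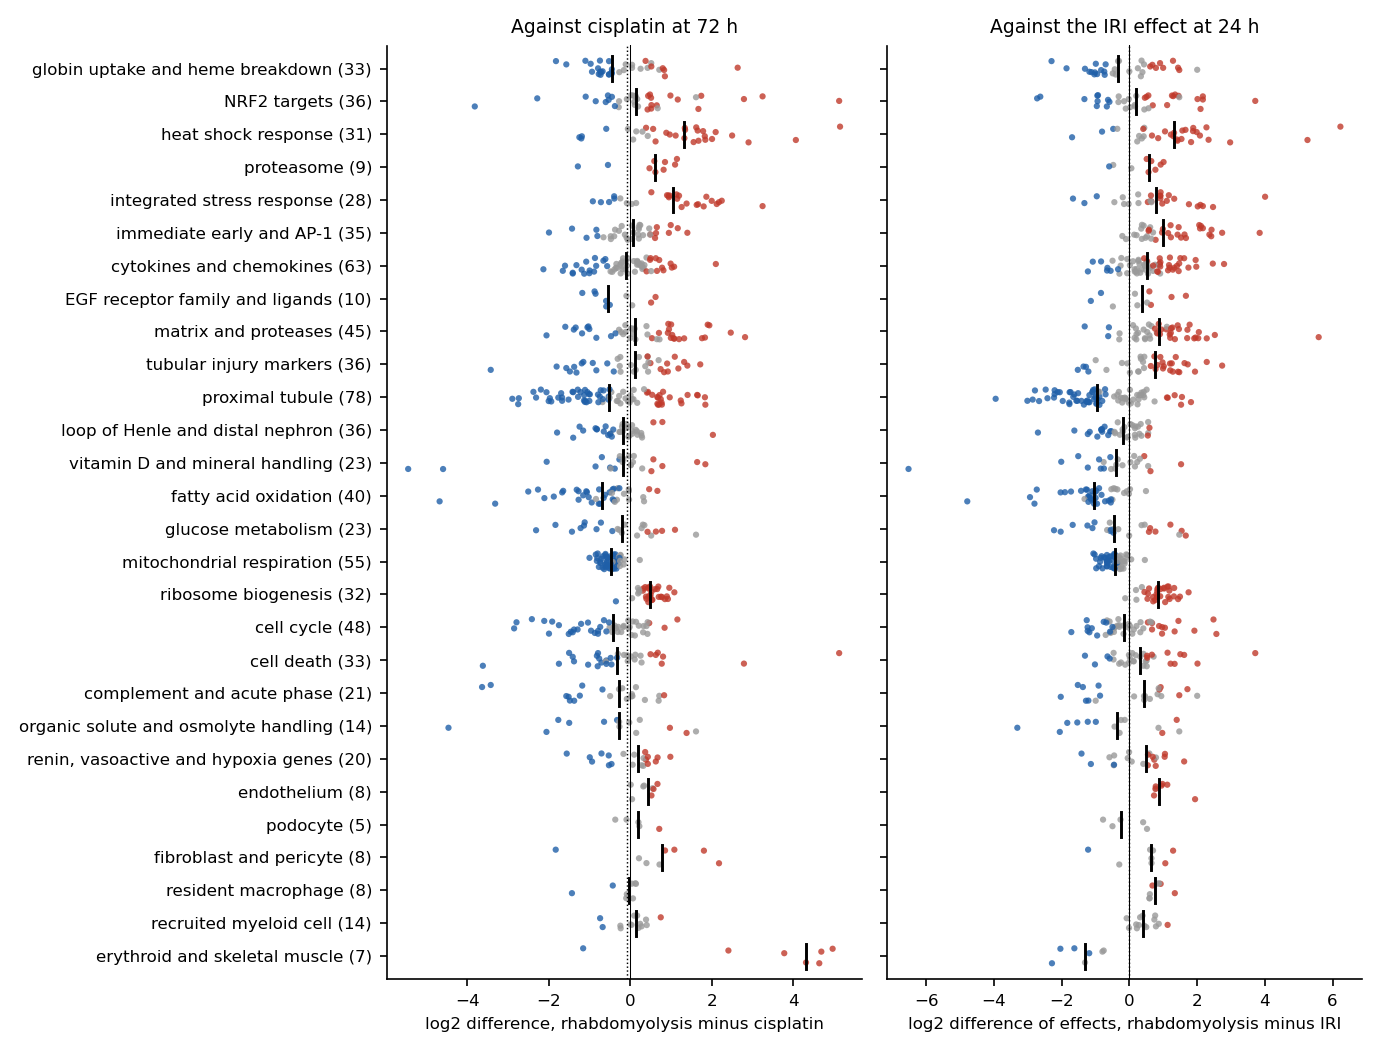
Log2 difference of rhabdomyolysis from cisplatin at 72 h (left) and of the rhabdomyolysis effect from the IRI effect at 24 h (right) for every tested member of each list, with red for higher, blue for lower and grey for not called at a limma adjusted p of 0.05, a black bar for the list's median and a dotted line for that of all genes tested. The heat shock response list, which includes the ER chaperones, has medians of 1.33 and 1.32 in the 2 panels, and the fatty acid oxidation list of -0.70 and -1.03.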

How the data were processed

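RNA of renal cortex was sequenced as stranded poly-A libraries, 1 per mouse, and one table of depth-scaled counts (CPM) was deposited by the authors, scaled to an effective library size whose derivation is not given in the sources used here. FastQC, Bowtie2 2.1.0, RSEM 1.2.15, edgeR and the GRCm38/mm10 build are named per the submitters' processing notes, without their roles. In each rhabdomyolysis and matched control library 100% of the deposited CPM values were whole multiples of what 1 read is worth (tolerance 0.1 read), so read counts were recovered from the deposited table. A single read was worth 0.0945 to 0.165 CPM in these libraries.

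Genes averaging 1 CPM or more over the 20 libraries were fitted as log2(CPM + 1) in 1 limma 3.58.1 model (R 4.3.3) with 5 groups and a mean-variance trend. P-values were adjusted by Benjamini-Hochberg over all genes tested, at a threshold of 0.05, without a replicate block. The script was tested on simulated data. Counting intervals are exact 95% Poisson intervals of the control reads and cover counting error only. Nothing in the labels beyond the term biological replicates says how mice were housed or processed. The p-values therefore measure the spread between mice, estimated over the 5 groups of the fit and not over the compared mice alone.

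The members and the 29 gene lists were chosen with earlier results of these data known. Genes were named by rule: the 10 largest rises and falls without overlap, up to 6 called members of each list and 3 against its direction, further members needed to account for a role, the 5 most variable genes, the 5 largest differences each way from the other injuries, and Sox9 and Vgf. A few genes that the rule names are not reported here. Alternatives were another pseudocount, minimum mean, scaling, trend, fold minimum, set of libraries and control set, edgeR 4.0.16 on recovered reads, and leaving out each mouse. Promoters came from RefSeq (GRCm38.p6).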

Additional observations from a re-analysis of the deposited data

Results flagged for a closer look

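Among 462 groups of 4 mice, 21 (4.55%) held 1 value set apart from the other 3 by Dixon's criterion, and chance alone sets apart about 1 in 20. After rhabdomyolysis mouse 1 stood apart with Hspa1a at 2128 CPM, Cd8a at 1.04 CPM, Me1 at 229 CPM and Procr at 74.7 CPM, and mouse 3 with Hp at 209 CPM. Mouse 4 stood apart with Ppp1r15a at 463 CPM, Slc12a1 at 151 CPM, Tpi1 at 326 CPM, Nhp2 at 70.2 CPM, Trpv6 at 4.54 CPM and Il6 at 1.02 CPM. Among controls, mouse 7 stood apart with Atp5a1 at 2775 CPM, Lrp2 at 1388 CPM, Sqstm1 at 785 CPM, Trap1 at 303 CPM, Hspb1 at 8.68 CPM, Mthfd2 at 5.34 CPM and Slc7a11 at 0.401 CPM, mouse 6 with Ppp1r15a at 14.9 CPM and Chil3 at 0 CPM, and mouse 8 with Col1a1 at 9.81 CPM.

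The effect of rhabdomyolysis differed from that of IRI for 2949 genes by the limma interaction test. Among the largest log2 differences named by the rule were 6.23 for Hspa1a, 5.59 for Mmp10, 5.26 for Hspa1b, 4.99 for Procr and 4.63 for Sstr5 on the high side. On the low side were -6.52 for Cyp24a1, -4.63 for Cckar, -3.98 for 0610005C13Rik and -3.95 for Keg1. The controls of the 2 identifier ranges differed for 0 genes at an adjusted p of 0.05 in limma and for 454 at an unadjusted p of 0.05.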

How the results depend on the processing

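Against matched controls, 5300 to 5375 genes were called when each of the 8 mice compared was left out in turn, 5397 with edgeR and 3672 to 5691 over the other alternatives. Leaving out each rhabdomyolysis, matched control or cisplatin mouse gave 2706 to 3061 calls against cisplatin, and leaving out each rhabdomyolysis, control or IRI mouse gave 2696 to 2999 against the IRI effect. Leaving out the cisplatin, IRI and IRI control mice was chosen after seeing the data. With a minimum of 2-fold added these 2 comparisons fell to 913 and 1283 calls, and list members called in the list's main direction to 5 for EGF receptors and ligands, 19 for the cell cycle, 16 for cell death, 11 for globin and heme, 1 for podocytes and 7 for vasoactive genes. The fewer genes passing follow from the added minimum. A minimum mean of 5 CPM left 9 recruited myeloid markers, since fewer genes were tested. No paired analysis was possible because the rhabdomyolysis mice are numbered 1 to 4 and their controls 5 to 8.

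Genes not called against controls changed sign as follows. Psrc1 had a log2 change of -0.29 with quantile normalization and of -0.039 to 0.16 when each mouse was left out (negative without control mouse 5 or rhabdomyolysis mouse 3). The same range was -0.31 to 0.032 for 1700007K13Rik (called lower with quantile normalization, at -0.50), -0.068 to 0.57 for Cyp27b1 and -0.022 to 0.28 for Hspa8. With all 8 controls Hspa8 was at -0.091 and Dnaja1 at -0.12, and with quantile normalization Hspb2 was at -0.056 and Mycn at -0.14. The cause was not tested. Genes with few control reads limit the precision of the largest ratios.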
